A study of Mus musculus with 4 samples.

Results

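The genes described here act in the DNA damage checkpoint and in DNA repair. They were chosen by name from a list of 44 genes, and a gene was read through the brightest of its probes, which are short DNA spots that catch its mRNA. Of these, 42 had a probe among the 27745 gene names on the arrays, and Atr and Mdc1 were not analysed here. The 42 genes comprised 10 of checkpoint signalling, 17 of double-strand break repair, 4 of the Fanconi anaemia pathway, 2 of mismatch repair and 9 of excision repair. mRNA was measured in mouse embryonic fibroblasts (MEFs), connective-tissue cells grown from embryos, on 4 microarrays of 2 colours. One comparison set MEFs of CycG1-/- mice (G1KO), in which the exons coding for cyclin G1 are replaced by a neomycin cassette, against MEFs of CycG1+/+ mice, and the other set MEFs of CycG2-/- mice (G2KO) against those of CycG2+/+ mice. Each wild type (WT) was labelled for the gene it was compared for. All were given as C57BL/6J in one label field, while another field gives C57BL/7J for the mice of the G2KO comparison. The cultures were growing logarithmically in serum and no damaging agent was named, so the values describe unirradiated cells. How many embryos or cultures stood behind each RNA is not given in the sources used here.

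Each comparison had 2 arrays with the dyes exchanged, which read the same pair of RNAs again, so that every genotype was 1 replicate and no p-value could be given. The SD printed with a log2 ratio is that between the 2 arrays and is technical. A positive ratio means more signal in the knockout. A gene was called when it was at least 2-fold higher, or at least 2-fold lower, on each array.

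Cells answer broken or stalled DNA with a relay. Sensor complexes bind the lesion, the kinases ATM and ATR pass the signal to CHK1 and CHK2, and p53 then induces genes that hold the cell cycle. The lesion itself is mended by a pathway that suits it. Breaks of both strands are rejoined end to end or copied from the sister chromatid, crosslinks are unhooked by the Fanconi anaemia proteins, mispaired bases are cut out by mismatch repair, and damaged bases by excision repair. Many of these genes are transcribed most in dividing cells, since homologous repair needs a replicated chromosome. Cyclin G1 and cyclin G2 bind the B'γ subunits of protein phosphatase 2A, and the study asked how their loss alters the handling of damage.

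The targeted genes were read first. In the G1KO comparison the brighter Ccng1 probe gave a log2 ratio of -6.67 ± 0.13, and its other probe gave -4.96 ± 0.08. The single Ccng2 probe gave 0.09 ± 0.27 in the G2KO comparison, so it was not lower in the RNA labelled G2KO. Which part of Ccng2 is deleted is not given in the sources used here, and whether the probe lies inside it is unknown. Ccng1, a p53 target, was higher there by 2.67 ± 0.03. Of 14 fibroblast markers, 14 were well above background in each of the 4 RNAs, and 8 were called lower in the RNA labelled G2KO, among them Pdgfra (-4.63 ± 0.09), Postn (-4.19 ± 0.07) and Thy1 (-3.22 ± 0.18). In the same RNA 4 of the 8 neural and glial markers measured were called higher (Sox2, Nes, En2 and Foxa2). In the G1KO comparison 6 of 8 mesothelial markers were called lower and 1, Krt19, was called higher (2.90 ± 0.11). Of the 14 fibroblast markers, 3 were called higher there (Col5a1, Pdgfrb and Lum) and 2 lower (Dcn and Col6a1). The paper found Xist RNA higher in G1KO and G2KO MEFs than in WT and put this down to female embryos as their source. Sex, where it differs within a pair, cannot be told apart from genotype here. The part of these differences between the cultures in the ratios below was not tested. A lower level per cell and fewer cells that carry the mRNA cannot be told apart in such RNA.

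None of the 42 checkpoint and repair genes was called in either comparison. All 42 were well above background in both genotypes on every array, so a ratio was measured for each. The ratios of dim members such as Bard1 and Ercc2 are still pulled toward 0 by the offset of the background correction. Over all 16615 genes measured in the G1KO comparison, 2.48% were called higher and 4.46% lower. Over all 16573 measured in the G2KO comparison, 2.73% were called higher and 4.84% lower. The 42 genes spanned log2 ratios from -0.34 to 0.60 in G1KO and from -0.20 to 0.98 in G2KO, where 90% of all genes lay between -0.99 and 0.73 and between -1.04 and 0.79.

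Within that narrow range the genes stood more often above 0 than below. In G1KO their median log2 ratio was 0.16, against 0.00 for all genes. In G1KO 28 of the 42 were above 0 on both arrays, against 40.1% of all genes, and 9 were below 0 on both, against 41.1%. In G2KO the median was 0.30, against -0.02 for all genes. There 33 of the 42 were above 0 on both arrays, against 39.9% of all genes, and 5 were below 0 on both, against 43.9%. With median centring in place of loess, which leaves the trend between the dyes in, 3 genes were above 0 on both arrays in G1KO and 11 in G2KO. The share of all genes above 0 on both arrays was not computed for that setting, so these counts have no baseline. The medians with median centring were 0.19 in G1KO and 0.38 in G2KO, against 0.03 for all genes in each comparison. At 1.5-fold on each array, no member was higher in G1KO, where 6.02% of all genes were, and none was lower, where 9.14% were. At that threshold 6 of the 42 were higher in G2KO, where 7.09% of all genes were, and none was lower, where 9.59% were. The 6 were Ercc1, Fancd2, Rpa1, Brca1, Lig3 and Msh6. This count was 0 with median centring, where 3.0% of all genes were higher, and 8 with the scanner's own log ratio, where 12.0% were. It was 7 on the array with knockout RNA in Cy5 alone, against 9.14% of all genes. On the array with it in Cy3 alone it was 10, against 8.51%. The direction of the median was the same under every alternative processing that was tried.

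**Figure D1:**
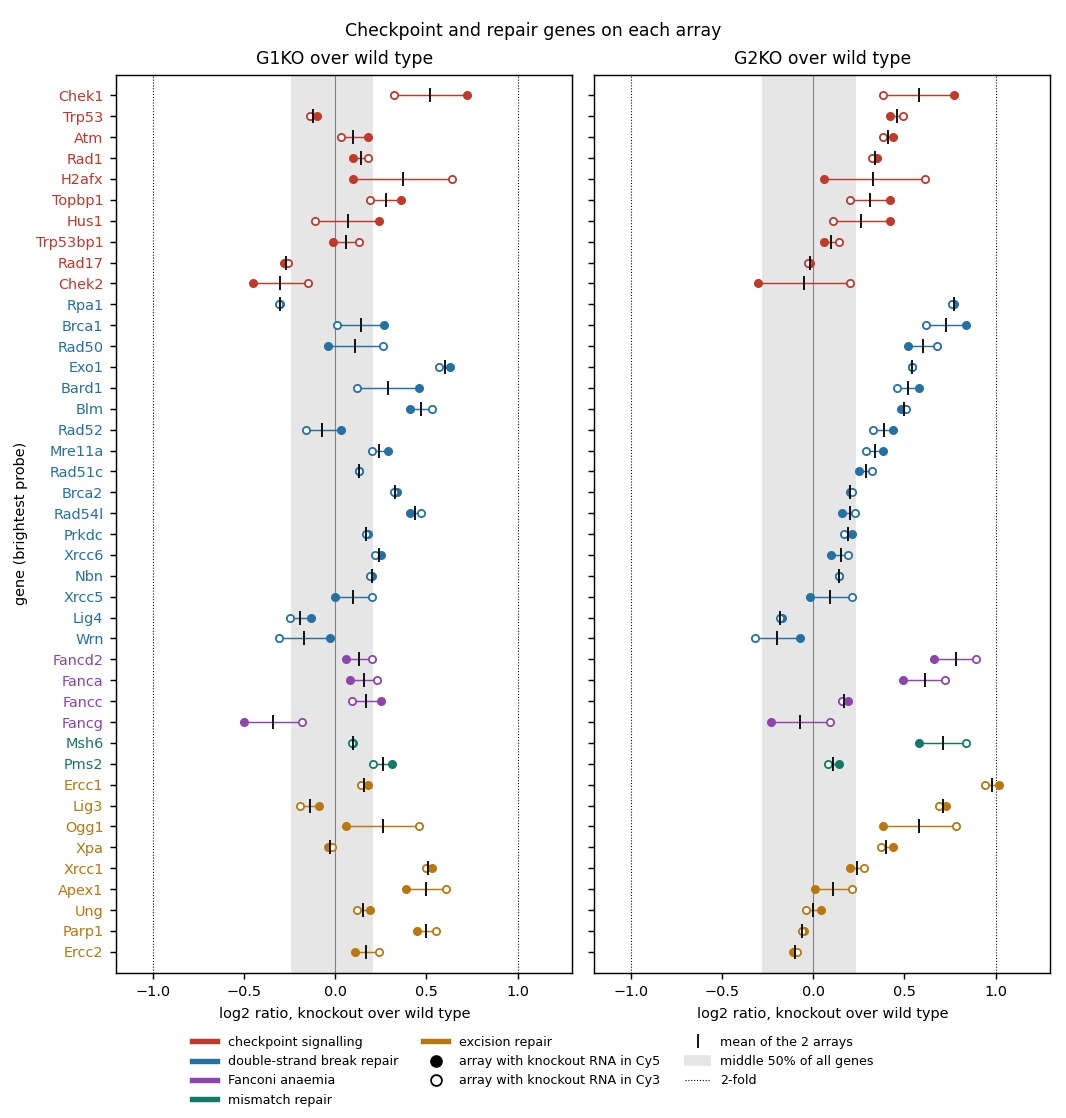
The plot gives the log2 ratio of knockout over wild type of each of the 42 genes on the array with knockout RNA in Cy5 (filled), on the array with it in Cy3 (open) and as their mean (bar), in G1KO (left) and G2KO (right), with the middle 50% of all genes in grey and 2-fold dotted. Most genes sit to the right of 0 in both panels, no gene lies past 2-fold on both arrays, and Ercc1 comes nearest in G2KO with 1.02 and 0.94.

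Among the checkpoint genes the median log2 ratio was 0.09 in G1KO and 0.32 in G2KO over 10 genes. Atm, the kinase that answers double-strand breaks (chromosome 9, 53200161 to 53200220, all positions on build mm8), gave 0.18 and 0.03 on the individual G1KO arrays and 0.44 and 0.38 on the G2KO arrays. Its log2 signal, after normalisation within and between arrays, was 8.94 in WT and 9.05 in G1KO, and 8.89 in WT and 9.30 in G2KO. The second Atm probe gave 0.17 in G1KO and 0.35 in G2KO. In G2KO both Atm probes were thus above 0, while in G1KO one array of the brighter probe was close to it.

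Chek1, the kinase downstream of ATR (chromosome 9, 36459511 to 36459570), was the checkpoint gene with the highest ratio in both comparisons. It gave 0.72 and 0.32 on the G1KO arrays and 0.77 and 0.38 on the G2KO arrays. Its log2 signal was 9.53 in WT and 10.05 in G1KO, and 9.71 in WT and 10.29 in G2KO, and both knockout RNAs lay above both WT RNAs. The second probe repeated these means, with 0.53 and 0.59.

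Chek2, the kinase downstream of ATM (chromosome 5, 111105830 to 111105889), differed from Chek1. It gave -0.45 and -0.15 on the G1KO arrays and -0.30 and 0.20 on the G2KO arrays. The log2 signals were 8.03 in WT and 7.72 in G1KO, and 7.75 in WT and 7.70 in G2KO. The mean of -0.30 ± 0.21 in G1KO exceeded the spread between the arrays, and the mean of -0.05 ± 0.35 in G2KO did not. The second Chek2 probe gave -0.13 in G1KO and 0.36 in G2KO, so no direction was settled for Chek2 in G2KO.

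H2afx, which codes for the histone variant that is phosphorylated around breaks (chromosome 9, 44086945 to 44087004), gave 0.10 and 0.64 on the G1KO arrays and 0.06 and 0.61 on the G2KO arrays. The log2 signal was 14.13 in WT and 14.50 in G1KO, and 14.20 in WT and 14.53 in G2KO. The means of 0.37 ± 0.38 and 0.33 ± 0.39 were no larger than the spread between the dyes. In both comparisons the higher value came from the array with knockout RNA in Cy3.

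Trp53, which codes for p53 (chromosome 11, 69405827 to 69405886), gave -0.10 and -0.14 on the G1KO arrays and 0.42 and 0.49 on the G2KO arrays. Its log2 signal was 10.88 in WT and 10.76 in G1KO, but 9.84 in the WT of the G2KO comparison and 10.30 in G2KO. Both RNAs of the G2KO comparison were therefore below both RNAs of the G1KO comparison. The second Trp53 probe gave 0.03 in G1KO and -0.02 in G2KO, so the difference was seen at the brighter probe only.

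The other checkpoint genes spanned -0.27 to 0.28 in G1KO and -0.02 to 0.34 in G2KO. Those of the sensor clamp and its loader were Rad1, with 0.14 in G1KO and 0.34 in G2KO, Hus1, with 0.07 and 0.26, and Rad17, with -0.27 and -0.02. Topbp1, which activates ATR, gave 0.28 and 0.31, and Trp53bp1, whose protein marks break sites, gave 0.06 and 0.10.

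Of the 17 genes of double-strand break repair, 11 were above 0 on both G1KO arrays and 14 on both G2KO arrays, and the median was 0.17 and 0.29. Rpa1, the largest subunit of the protein that coats single-stranded DNA (chromosome 11, 75116753 to 75116812), moved in opposite directions. It gave -0.30 and -0.31 on the G1KO arrays, and 0.77 and 0.76 on the G2KO arrays. Its log2 signal was 13.60 in WT and 13.29 in G1KO, and 12.64 in WT and 13.41 in G2KO. Of the 4 RNAs, the WT of the G2KO comparison stood apart as the lowest, while the G2KO RNA was close to the G1KO RNA.

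Exo1, the nuclease that trims broken ends and also serves mismatch repair (chromosome 1, 177745226 to 177745285), had the highest ratio of the 42 genes in G1KO. It gave 0.63 and 0.57 there and 0.54 on both G2KO arrays. The log2 signal was 12.33 in WT and 12.93 in G1KO, and 12.06 in WT and 12.60 in G2KO. Blm, a helicase that dissolves joined DNA molecules, was alike in both comparisons, with 0.47 and 0.50.

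Brca1, which steers breaks toward homologous repair (chromosome 11, 101305185 to 101305244), gave 0.27 and 0.01 on the G1KO arrays and 0.84 and 0.62 on the G2KO arrays. Its second probe gave 0.08 and 0.50. Brca2, which loads the recombinase, gave 0.33 in G1KO and 0.20 in G2KO. Bard1, the partner of Brca1, was dim, with log2 signals of 6.35 to 6.98 over the arrays, and gave 0.29 in G1KO and 0.52 ± 0.08 in G2KO. Its ratio in G2KO depended on the background correction, with 1.69 and 1.74 on the individual arrays in the scanner's own log ratio, 1.34 and 1.04 with local background subtracted by the minimum method, and so past 2-fold on each array under both. Of the complex that holds broken ends, Rad50 gave 0.11 and 0.60, Mre11a gave 0.24 and 0.34, and Nbn gave 0.20 and 0.14. Among the genes of strand exchange, Rad51c gave 0.13 and 0.29, Rad52 gave -0.07 and 0.39, and Rad54l gave 0.44 and 0.20.

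Of the genes of end joining, Prkdc, the catalytic subunit of the DNA-dependent kinase, gave 0.17 in G1KO and 0.19 in G2KO, and its partners Xrcc5 and Xrcc6 gave 0.10 and 0.24 in G1KO and 0.09 and 0.15 in G2KO. Lig4, the ligase of end joining (chromosome 8, 9970262 to 9970321), gave -0.13 and -0.25 on the G1KO arrays and -0.17 and -0.18 on the G2KO arrays, with log2 signals of 10.77 in WT and 10.58 in G1KO, and of 10.47 and 10.53 on the individual arrays in WT and 10.32 in G2KO. Wrn, a helicase and nuclease (chromosome 8, 34701921 to 34701980), gave -0.03 and -0.31 on the G1KO arrays and -0.07 and -0.32 on the G2KO arrays, with log2 signals of 8.57 in WT and 8.40 in G1KO, and of 8.45 in WT and 8.26 in G2KO. Lig4 and Wrn were the only members of this class below 0 on both arrays of both comparisons, and the second probe of each had the same sign, with -0.11 and -0.08 for Lig4 and -0.23 and -0.28 for Wrn.

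In the Fanconi anaemia pathway, Fancd2, whose protein is ubiquitinated at crosslinks (chromosome 6, 113562636 to 113562695), gave 0.06 and 0.20 on the G1KO arrays and 0.66 and 0.89 on the G2KO arrays. The log2 signal was 9.33 in WT and 9.46 in G1KO, and 9.15 in WT and 9.93 in G2KO, which was the highest of the 4 RNAs. Its second probe gave 0.09 and 0.67. Fanca and Fancc of the core complex gave 0.16 and 0.17 in G1KO and 0.61 and 0.17 in G2KO.

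Fancg, another core subunit (chromosome 4, 43023464 to 43023523), had the lowest ratio of the 42 genes in G1KO. It gave -0.50 and -0.18 on the G1KO arrays and -0.23 and 0.09 on the G2KO arrays. The log2 signal was 10.19 in WT and 9.85 in G1KO, and 11.02 in WT and 10.95 in G2KO, so that both RNAs of the G2KO comparison were above both of the G1KO comparison. The 3 Fancg probes did not give 1 value. In G1KO the second probe gave -0.22 ± 0.12, while the dimmest (chromosome 4, 43031102 to 43031161) gave -1.49 on each array and was past 2-fold. In G2KO the same probe gave -0.07 ± 0.12, and there only 1 genotype was well above background.

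Of the mismatch repair genes, Msh6, part of the complex that recognises mispairs (chromosome 17, 87899129 to 87899188), gave 0.10 and 0.09 on the G1KO arrays and 0.58 and 0.84 on the G2KO arrays. Its WT signal in the G2KO comparison, 13.33, was the lowest of the 4 RNAs, and its G2KO signal, 14.05, the highest. Pms2, of the complex that cuts the mispaired strand, gave 0.26 in G1KO and 0.11 in G2KO.

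The 9 genes of excision repair had a median of 0.17 in G1KO and 0.24 in G2KO. In G1KO the leading genes of this class belonged to base excision and single-strand break repair. That pathway also held the lowest of the 9 in G1KO, as its 6 genes ran from -0.14 (Lig3) to 0.51 (Xrcc1). Xrcc1, the scaffold of that pathway (chromosome 7, 24282009 to 24282068), gave 0.53 and 0.50 on the G1KO arrays and 0.20 and 0.28 on the G2KO arrays. Its log2 signal was 12.55 in WT and 13.06 in G1KO, and 12.90 in WT and 13.14 in G2KO. Parp1, which senses nicks, gave 0.45 and 0.55 on the G1KO arrays and -0.05 and -0.06 on the G2KO arrays, and its second probe gave 0.45 and -0.05. Apex1, the nuclease that cuts at abasic sites, gave a mean of 0.50 in G1KO and 0.11 in G2KO. Ung and Ogg1, glycosylases that remove uracil and oxidised guanine, gave 0.15 and 0.26 in G1KO and 0.00 and 0.58 in G2KO.

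In G2KO the leading genes of the class were Ercc1 and Lig3. Ercc1, which cuts the damaged strand with its partner XPF (chromosome 7, 18512926 to 18513660), gave 0.18 and 0.14 on the G1KO arrays and 1.02 and 0.94 on the G2KO arrays, so that it missed 2-fold on 1 array. Its log2 signal was 11.64 in WT and 11.80 in G1KO, and 11.40 in WT and 12.38 in G2KO, the highest of the 4 RNAs. Over the alternatives its mean ran from 0.94 to 1.09.

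Lig3, the ligase that works with Xrcc1 (chromosome 11, 82618541 to 82618600), gave -0.09 and -0.19 on the G1KO arrays and 0.73 and 0.69 on the G2KO arrays, and its second probe gave -0.21 and 0.62. Its log2 signal was 9.33 in WT and 9.19 in G1KO, and 9.12 in WT and 9.83 in G2KO, which was the RNA that stood apart. Ercc2, a helicase that opens DNA at the lesion and lies near Ercc1 (chromosome 7, 18553455 to 18553514), gave 0.11 and 0.24 on the G1KO arrays and -0.11 and -0.09 on the G2KO arrays, with log2 signals of 6.67 in WT and 6.84 in G1KO, and of 6.70 in WT and 6.59 in G2KO. Ercc2 was dim, and the offset added to the background correction pulls the ratios of dim probes toward 0. Xpa, which verifies the lesion, gave -0.03 and 0.40.

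**Figure D2:**
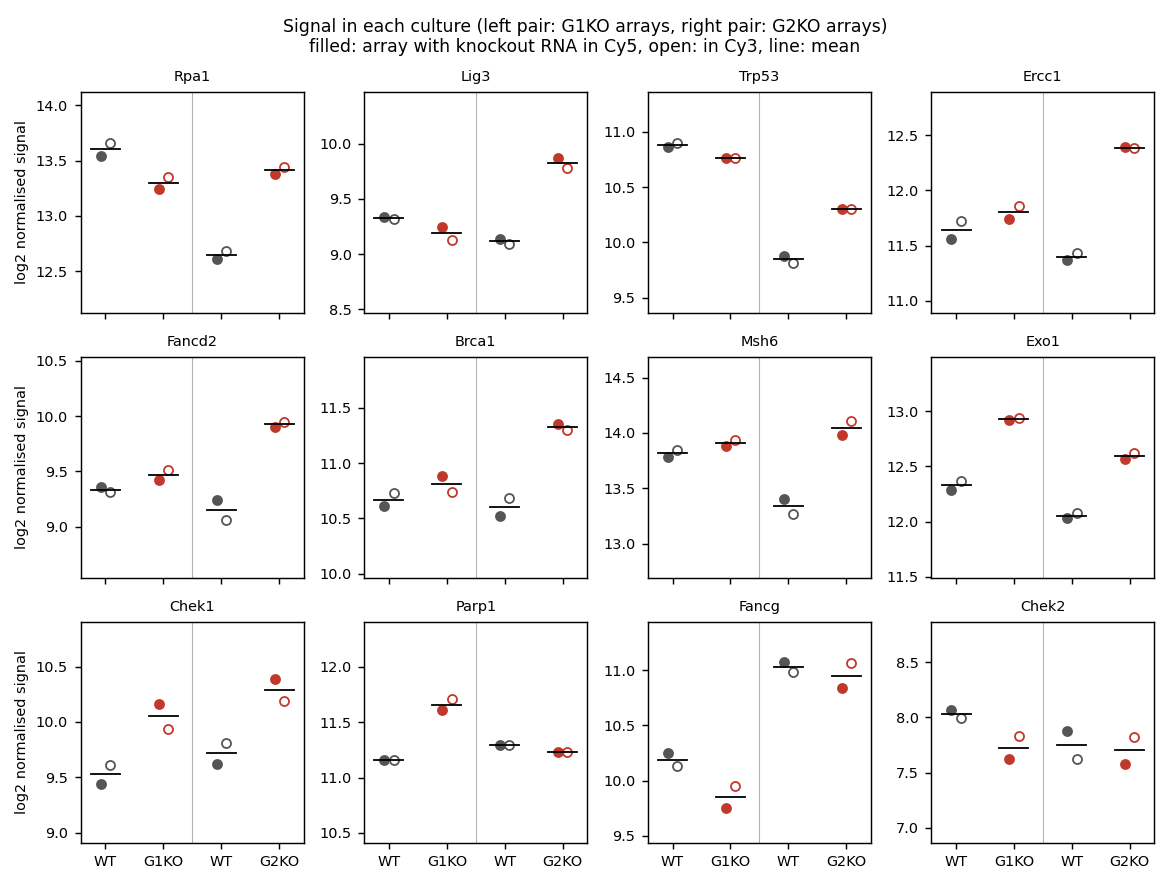
Each panel plots the log2 normalised signal of 1 gene in 4 RNAs, from left to right the WT and G1KO of the first comparison and the WT and G2KO of the second, on the array with knockout RNA in Cy5 (filled) and in Cy3 (open), with the mean as a line and every panel spanning 2 log2 units. Rpa1 is lowest in the WT of the G2KO comparison (12.64), Lig3 and Ercc1 are highest in G2KO (9.83 and 12.38), and Trp53 is lower in both RNAs of the G2KO comparison (9.84 and 10.30).

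Of the 42 genes, 25 were above 0 on all arrays of both comparisons and 3 below 0 on all of them. A further 4 were below 0 on both G1KO arrays and above 0 on both G2KO arrays, which were Rpa1, Lig3, Trp53 and Xpa, and 2 were the reverse, which were Parp1 and Ercc2. The other 8 had mixed signs in at least 1 comparison. The ratio was larger in G2KO than in G1KO for 27 of the 42. The shares of all genes with these sign patterns, or with a larger ratio in G2KO, were not computed. These counts therefore have no baseline and describe the 42 genes only. With 1 replicate of each genotype, the difference between the comparisons could not be tested. The comparisons shared no RNA by their labels.

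**Figure D3:**
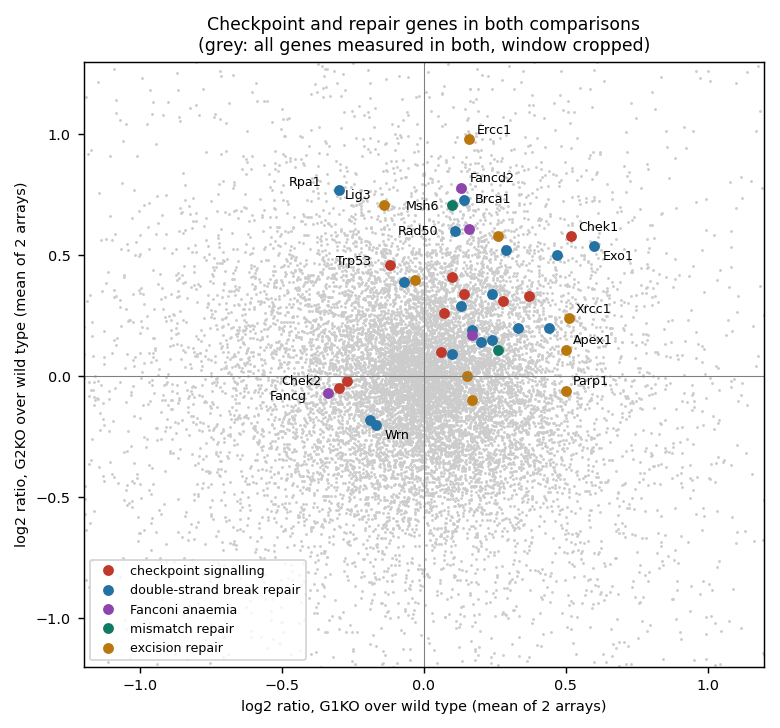
The plot sets the mean log2 ratio in G1KO (horizontal) against that in G2KO (vertical) for the 42 genes, coloured by class, over all genes measured in both comparisons in grey, with the window cropped. The genes crowd the upper right, Ercc1 and Fancd2 stand high in G2KO with small ratios in G1KO, Rpa1 (-0.30 and 0.77) and Lig3 (-0.14 and 0.71) lie upper left, and Parp1 (0.50 and -0.06) lies to the right.

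The WT RNAs differed from each other as well. In log2 signal the WT of the G2KO comparison was over 0.5 away from the WT of the G1KO comparison for 6 of the 42 genes. Trp53 was lower there by a difference of -1.04, Rpa1 by -0.96, Fanca by -0.70 and Rad50 by -0.52, while Fancg was higher by 0.83 and Brca2 by 0.63. Over the 42 genes the median of this difference was 0.01, and over all 15731 genes measured in both comparisons it was 0.04. The share of all genes with a difference over 0.5 was not computed, so the count of 6 has no baseline. Signals of separate arrays share no RNA, so these differences rest on the normalisation between arrays.

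Position on the chromosome moved with some of these values. Rad50, Trp53, Rpa1 and Lig3 lie on chromosome 11 between 52 and 85 Mb. This segment was taken up after the data were seen, so its medians describe these arrays only. The median log2 ratio of the other genes of that segment was -0.10 over 459 genes in G1KO and 0.23 over 452 genes in G2KO, and the median of the 4 repair genes was -0.13 and 0.65. Leaving these 4 out, the median of the remaining 38 genes was 0.16 in G1KO and 0.25 in G2KO. The genes measured within 5 Mb of Rpa1 had a median of -0.14 in G1KO and 0.25 in G2KO, and those near Lig3 had -0.08 and 0.20. Near Fancd2 and Ogg1 on chromosome 6 the median in G2KO was 0.26. Near Ercc1 it was 0.06, near Msh6 0.07 and near Brca1 -0.11. In G2KO 37 of the 42 genes exceeded the median of their neighbours and in G1KO 31 did, by a median of 0.34 and 0.16. The part of the neighbourhood in the single values was not tested.

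**Figure D4:**
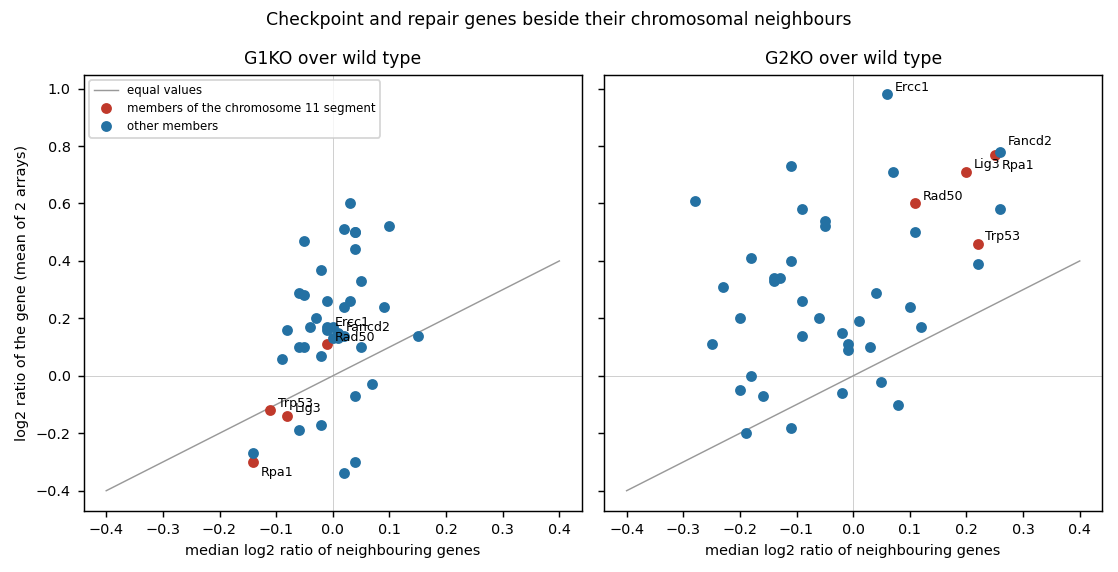
The plot sets the log2 ratio of each of the 42 genes (vertical) against the median of the genes measured within 5 Mb of it (horizontal), in G1KO (left) and G2KO (right), with a line of equal values and the genes of the chromosome 11 segment in red. Neighbour medians span -0.14 to 0.15 in G1KO and -0.28 to 0.26 in G2KO, Rpa1, Lig3 and Trp53 lie on the negative side in G1KO and the positive side in G2KO in both measures, and Ercc1 stands far above its neighbours in G2KO.

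The promoters of the genes that led in G2KO were read from RefSeq sequence on GRCm38.p6, in which 35 of the 42 genes had a promoter entry, with 39 entries in all. Fancd2 had none. They are printed to show the sequence next to which the genes of the 1.5-fold group start, with the 170 bases that end at the gene's start, on the gene's own strand. Capitals mark a CCAAT box (CCAAT, or ATTGG on the other strand), an element of many promoters active in dividing cells.
Ercc1, chr7:19344901-19345070, plus strand: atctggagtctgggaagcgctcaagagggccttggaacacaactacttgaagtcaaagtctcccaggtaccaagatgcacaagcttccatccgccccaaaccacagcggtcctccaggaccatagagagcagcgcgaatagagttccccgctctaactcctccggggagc
Rpa1, chr11:75348384-75348553, minus strand: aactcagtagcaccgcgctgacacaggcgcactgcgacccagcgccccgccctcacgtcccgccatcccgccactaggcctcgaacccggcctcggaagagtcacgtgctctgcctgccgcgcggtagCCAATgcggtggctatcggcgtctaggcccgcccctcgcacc
Lig3, chr11:82780939-82781108, plus strand: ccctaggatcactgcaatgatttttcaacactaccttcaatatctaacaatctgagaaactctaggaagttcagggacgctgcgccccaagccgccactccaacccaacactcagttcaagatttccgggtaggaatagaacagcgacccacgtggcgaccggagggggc
Brca1, chr11:101551956-101552125, minus strand: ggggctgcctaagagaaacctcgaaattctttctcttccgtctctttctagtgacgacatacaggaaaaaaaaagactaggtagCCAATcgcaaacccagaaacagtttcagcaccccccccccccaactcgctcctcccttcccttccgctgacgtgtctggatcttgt
Msh6, chr17:87974880-87975049, plus strand: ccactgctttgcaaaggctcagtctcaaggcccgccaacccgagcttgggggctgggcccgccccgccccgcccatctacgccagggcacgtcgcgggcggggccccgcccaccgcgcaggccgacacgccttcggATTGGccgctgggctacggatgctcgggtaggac

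In the 250 bases before the start, on either strand, a CCAAT box was found in 3 of these 5 promoters (Rpa1, Brca1 and Msh6), in 19 of the 39 entries of the 42 genes and in 33.8% of all 32851 entries. The E2F site, searched as TTTCCCGC, TTTCGCGC, TTTGCCGC and TTTGGCGC, is bound by factors that drive S-phase genes. It was in none of the 5, in 6 of the 39 entries and in 1.86% of all entries. The cell-cycle element CHR, searched as TTTGAA, was in none of the 5, in 2 of the 39 and in 16.0% of all, and the p53 half-site was in none, 3 and 7.13%. The search allowed motifs to overlap. The genes with the E2F letters were Chek2, Topbp1, Brca2, Bard1, Fancg and Xrcc6, whose log2 ratios in G2KO ran from -0.07 to 0.52. In the printed examples capitals mark the E2F letters on the other strand, and also a CCAAT box of Chek2.
Chek2, chr5:110839813-110839982, plus strand: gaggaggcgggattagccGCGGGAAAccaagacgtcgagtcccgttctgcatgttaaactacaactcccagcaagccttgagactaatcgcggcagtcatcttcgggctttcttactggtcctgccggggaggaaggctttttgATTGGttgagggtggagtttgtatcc
Topbp1, chr9:103305157-103305326, plus strand: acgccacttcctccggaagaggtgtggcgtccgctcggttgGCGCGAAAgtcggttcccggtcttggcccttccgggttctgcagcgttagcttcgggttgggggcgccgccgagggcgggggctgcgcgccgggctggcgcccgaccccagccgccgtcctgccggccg
Brca2, chr5:150522451-150522620, plus strand: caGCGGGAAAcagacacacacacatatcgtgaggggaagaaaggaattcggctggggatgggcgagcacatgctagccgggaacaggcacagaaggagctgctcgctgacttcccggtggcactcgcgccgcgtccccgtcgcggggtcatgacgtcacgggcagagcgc

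Beyond the 42, other genes of the same pathways were read from a list of repair and checkpoint genes. None of the 101 measured in G1KO was called, against 2.48% of all genes called higher and 4.46% lower. Of the 102 measured in G2KO, 1 was called higher and none lower, against 2.73% and 4.84% of all genes. The one called was Polk, a polymerase that copies past damage, with 1.52 and 1.32 on the G2KO arrays and a mean of -0.81 ± 0.08 in G1KO. At 1.5-fold on each array, 19 of the 102 were higher in G2KO and 3 lower, against 7.09% and 9.59% of all genes. In G1KO 1 was higher and 2 lower, against 6.02% and 9.14%. The median of these other genes was 0.10 in G1KO and 0.22 in G2KO. By pathway, the median in G2KO was 0.56 for the 7 genes of translesion synthesis, 0.44 for 6 other Fanconi genes, 0.33 for 7 other mismatch genes, 0.27 for 28 other genes of double-strand break repair and 0.22 for 21 other checkpoint genes. It was 0.03 for the 33 other excision genes. In G1KO these medians were -0.03, 0.21, 0.22, 0.14, 0.17 and 0.04 in the same order.

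Lists of cell-cycle markers were read beside the repair genes. Replication and S-phase markers had a median of 0.35 over 19 genes in G1KO and 0.37 over 20 genes in G2KO, and mitosis markers 0.08 and 0.56 over 20 genes, of which 6 were below 0 on both G1KO arrays and 0 on both G2KO arrays. In G2KO Mcm2, of the replicative helicase, was called higher with 1.07 ± 0.01 and Aurkb, a kinase of mitosis, with 1.31 ± 0.01. In G1KO none of these markers was called. The part of the share of cycling cells in the ratios of the repair genes was not tested.

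Genes that p53 induces after damage went apart between the comparisons. In G1KO their median was -0.54 over 20 genes, of which 4 were called lower, including the deleted Ccng1, and none higher, against 4.46% and 2.48% of all genes. In G2KO the median was 0.60, with 8 called higher, including Ccng1, and none lower, against 2.73% and 4.84% of all genes. The list was not uniform, and 4 of its genes were below 0 on both G2KO arrays, which were Plk2 (-0.88 ± 0.11), Gadd45a (-0.39 ± 0.01), Sesn1 (-0.32 ± 0.09) and Fas (-0.19 ± 0.16). Cdkn1a, which codes for the inhibitor p21, gave -0.77 ± 0.07 and 2.75 ± 0.13, and Mdm2, the ligase that degrades p53, gave -0.92 ± 0.13 and 1.69 ± 0.02.

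**Figure D5:**
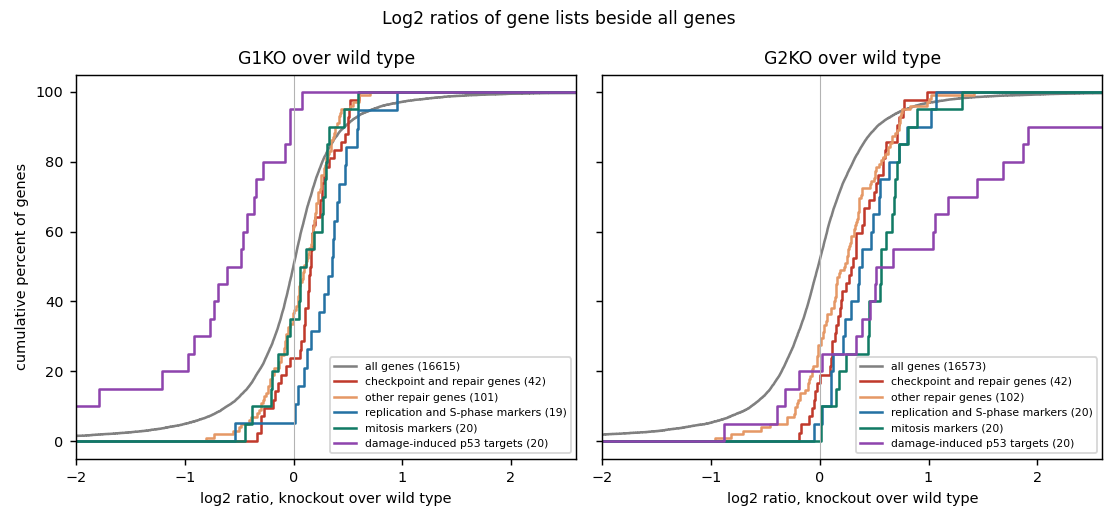
The curves give the cumulative percent of genes (vertical) by log2 ratio (horizontal) in G1KO (left) and G2KO (right) for the 42 checkpoint and repair genes, other repair genes, cell-cycle markers, p53 targets and all genes, with the number of genes in brackets. The repair genes lie to the right of all genes in both panels (medians 0.16 and 0.30) and to the left of the S-phase markers at the median (0.35 and 0.37), while the p53 targets lie to the left in G1KO (-0.54) and to the right in G2KO (0.60).

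The 23 genes with more than 1 probe allowed a check within the arrays. In G1KO 20 of the 27 other probes measured had the sign of the brightest, and in G2KO 19 of 24 did. The median difference from the brightest probe was 0.08 in size in both comparisons. The probe farthest from the brightest was the dimmest Fancg probe in G1KO, 1.15 away, and in G2KO the second probes of Trp53 and Chek2 were 0.48 and 0.41 away. In G1KO a probe of the other sign was found for Mre11a (-0.09 against 0.24), Nbn (-0.05 against 0.20), Rad50 (-0.11 against 0.11), Wrn (0.01 against -0.17), Trp53 (0.03 against -0.12), Trp53bp1 (-0.08 against 0.06) and Hus1 (-0.02 against 0.07). In G2KO it was found for Chek2 (0.36 against -0.05), Trp53 (-0.02 against 0.46), Nbn (-0.08 against 0.14), Fancg (0.02 against -0.07) and Rad17 (0.03 against -0.02).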

How the data were processed

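Per the labels, RNA of a knockout and of a wild-type MEF culture was labelled with Cy5 and Cy3 and hybridised together on Agilent mouse arrays, with the dyes exchanged on the second array. The authors' deposited scanner files (Agilent Feature Extraction 10.5.1.1 per the file headers, 9.1 per the labels) hold linear intensity per spot, log10 ratios and flags for dim and outlying spots. The deposited series table holds the same log10 ratios. P-values of these ratios, from the scanner's error model, were not used.

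Intensity was background-corrected (normexp, offset 50, fitted on all spots) with limma 3.58.1 in R 4.3.3. Control and outlier spots were dropped, loess was fitted within arrays, spots of a probe were averaged, ratios were turned to knockout over wild type and the 2 arrays were averaged. A gene was read by its brightest probe and counted as measured where it was well above background on both arrays in at least 1 genotype. Signals per RNA used Aquantile normalisation between arrays. All 4 arrays were on 1 slide and in 1 scan. The number of arrays limits the precision. The pipeline was tested on simulated data. Full values were given for called genes, the 3 highest and 3 lowest in each comparison, and Atm, Chek2, H2afx, Trp53 and Rpa1. Brca1, Msh6, Lig3, Parp1 and other genes given by array were chosen after their values were seen. The genes and lists were chosen with earlier results of these data known.

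Alternatives were the scanner's ratio, the series table, other background, normalisation, filter, probe and fold settings, each array alone, and, added after seeing the data, leaving out genes of the chromosome 11 segment.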

Additional observations from a re-analysis of the deposited data

Results flagged for a closer look

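Both arrays lay on one side of 0 in G1KO and on the other in G2KO for 6 of the 42 genes. The share of all genes that did so was not computed. The difference between the comparisons was not tested. As G2KO minus G1KO on the log2 scale it was 1.07 for Rpa1, 0.85 for Lig3, 0.58 for Trp53 and 0.44 for Xpa, and -0.56 for Parp1 and -0.28 for Ercc2. Rpa1, Lig3 and Trp53 lie in the segment of chromosome 11 whose other genes had medians of -0.10 and 0.23. At the second Trp53 probe the ratios were 0.03 and -0.02. Parp1 in G2KO was 0.04 with median centring in place of loess. Xpa in G1KO ran from -0.04 to 0.04 over the alternatives. It was above 0 with the scanner's ratio, the series table and median centring.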

How the results depend on the processing

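The number of called checkpoint and repair genes in G1KO was 0 under every alternative, including 1.5-fold. In G2KO it was 0 with no background subtraction, median centring, Aquantile, either filter, the median over probes and a 4-fold threshold, and 1 with the scanner's log ratio, the series table and the minimum method. This gene was Bard1, a dim probe, at means of 1.71, 1.71 and 1.19 in place of 0.52. The offset of the normexp correction pulls the ratios of dim probes toward 0. The count was 6 at 1.5-fold. On single arrays it was 0 to 1, with Ercc1 at 1.02. The median log2 ratio of 0.16 in G1KO was 0.24 with the scanner's log ratio and the series table, 0.18 with the minimum method, 0.19 with median centring and 0.14 with the median over probes, and 0.16 to 0.17 on single arrays. The median of 0.30 in G2KO was 0.34, 0.34, 0.32, 0.38 and 0.26 in that order, 0.29 to 0.30 on single arrays, and 0.25 without the genes of the chromosome 11 segment. The sign of a gene's mean ratio was the same under all processing alternatives for 36 of the 42 genes in each comparison. Agreement of the arrays within a setting was not part of this count. With median centring 3 genes in G1KO and 11 in G2KO were above 0 on both arrays, against 28 and 33 with loess. No paired analysis was possible because each genotype had 1 replicate and no p-value could be made. The arrays of a pair measure the same RNA, and the spread between cultures is unknown.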

Other observations

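The difference between the arrays of a pair was repeated from one comparison to the other. For 8 of the 42 genes the ratio with knockout RNA in Cy5 was over 0.2 away from that with it in Cy3 in both comparisons, and the sign was the same for 8 of 8. For H2afx this difference was -0.54 in G1KO and -0.55 in G2KO, for Ogg1 -0.40 and -0.40, and for Chek1 0.40 and 0.39. Across the 42 genes the difference had r = 0.90 between the comparisons, and r = 0.79 across the 15731 genes measured in both, where genes are no independent replicates and all arrays share a slide and the dyes. The mean of both arrays balances the dyes.

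In the chromosome 11 segment the signals of single RNAs differed too. Over 438 genes without the repair genes, the WT of the G2KO comparison was below the WT of the G1KO comparison by a median difference of -0.16, and the G2KO RNA was above the G1KO RNA by 0.16, against 0.04 and 0.04 over all genes.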
